A study of Mus musculus with 8 samples.

Results

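The immediate early genes Fos, Fosb, Jun, Junb, Jund, Egr1, Atf3, Klf2, Klf4 and Ier2 were examined in sorted cardiac Purkinje cells, the conducting myocytes at the distal end of the electrical system of the heart, and in ventricular working myocytes. They were read by every probe set that names 1 of these 10 genes and no other gene, which gave 13 probe sets of the 45101 on the array, for 10 genes of the 18193 that probe sets name alone. Fos, Fosb, Junb, Egr1, Atf3, Klf2 and Ier2 had 1 probe set each, and Jun, Jund and Klf4 had 2. A probe set whose deposited target text names Fosb, but which is described and annotated as Hipk3, was left out. There were 4 Purkinje and 4 ventricular arrays, a pair from each of 4 adult male mice. All animals carried the Cntn2-EGFP reporter, which marks Purkinje cells, and a tdTomato reporter switched on by the a-MHC-Cre driver, whose promoter is active in cardiac myocytes, on a mixed CD1, C57/B6 and 129S1 background. Cells were freed by enzymatic digestion of the perfused heart and sorted by FACS. Every array therefore holds dissociated and sorted cells, and since no undissociated tissue was measured, the level a gene had in the heart and any rise during isolation cannot be told apart.

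Immediate early genes are transcribed within minutes of a stimulus from factors already present in the cell, without new protein synthesis. The best known encode the subunits of the AP-1 transcription factor, in which a Fos protein pairs with a Jun protein through a leucine zipper. Others encode zinc finger factors of the Egr and Klf families. They respond to growth factors, stretch, calcium and stress, they are known to be induced by enzymatic dissociation of tissue, and Klf2 and Klf4 are also expressed in endothelium, where they respond to blood flow.

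The deposited values are array signals on a linear scale, each array scaled to a trimmed mean of 150.001. All 13 probe sets lay above the limit for testing, a mean signal of 19.9 (the 40th percentile of all probe sets), and 22887 probe sets in all were tested. The median log2 difference of Purkinje minus ventricular arrays over all tested probe sets was 0.08. Quantile normalization moved this median to -0.06 and median centring to -0.32, so small differences are to be read against those values. Centring took off each array's median over all 45101 probe sets, tested or not. Those array medians were 36.1 to 42.9 on Purkinje and 28.2 to 32.3 on ventricular arrays. Myh6, a cardiac myosin gene, lay between 9058 and 11339 on all 8 arrays. Cntn2, whose reporter marked the cells, lay between 222.3 and 1256 on Purkinje arrays and between 2.9 and 24.0 on ventricular arrays. In bulk samples a change in the number of cells of a type and a change in RNA per cell cannot be told apart.

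In the comparison of the cell types within hearts, 9 of the 13 probe sets, covering Fos, Fosb, Jun, Jund, Egr1, Klf2, Klf4 and Ier2, were higher in Purkinje cells and none was lower (limma with the heart as a block, Benjamini-Hochberg adjusted p at 0.05 over all tested probe sets). Over all tested probe sets 15.1% were called, 8.8% higher and 6.34% lower. At an unadjusted p under 0.05 it was 11 of the 13, against 29.8% of all. The median log2 difference of the 13 was 0.89, and it was 0.49 after median centring and 0.50 with 64 added to each signal before log2. In 11 of the 13 the Purkinje array exceeded its ventricular partner in all 4 hearts, which held for 21.3% of all tested probe sets. The groups did not overlap in 4 of the 13 (Klf2, Junb, 1 of Jun and 1 of Jund), against 6.54% of all. These calls rested on the pairing and on the variance model. Without the heart block none of the 13 passed (adjusted p from 0.0550 for Klf2 to 0.888 for Atf3, with 11 of 13 at an unadjusted p under 0.05, against 20.9% of all), where 2.16% of all probe sets were called. Leaving out ventricular array 1 from that fit let 5 of the 13 pass, with 6.18% of all. With the block but without a mean-variance trend in limma none passed either (lowest adjusted p = 0.0643, with 8 of 13 at an unadjusted p under 0.05, against 25.9% of all), and 7 of all probe sets did. With 1 heart left out the number called was 9 without heart 1, 5 without heart 2, 4 without heart 3 and 5 without heart 4, where 16.7%, 6.52%, 6.06% and 8.15% of all probe sets were called. The probe sets of Egr1, Klf2 and both of Klf4 passed in each of these 4 fits. After median centring 5 passed, those 4 and that of Ier2, with 32.8% of all called, mostly lower. The p-values of the authors' deposited table, adjusted over the same probe sets, left none, with 10 of the 13 and 20.1% of all under 0.05 unadjusted.

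**Figure D1:**
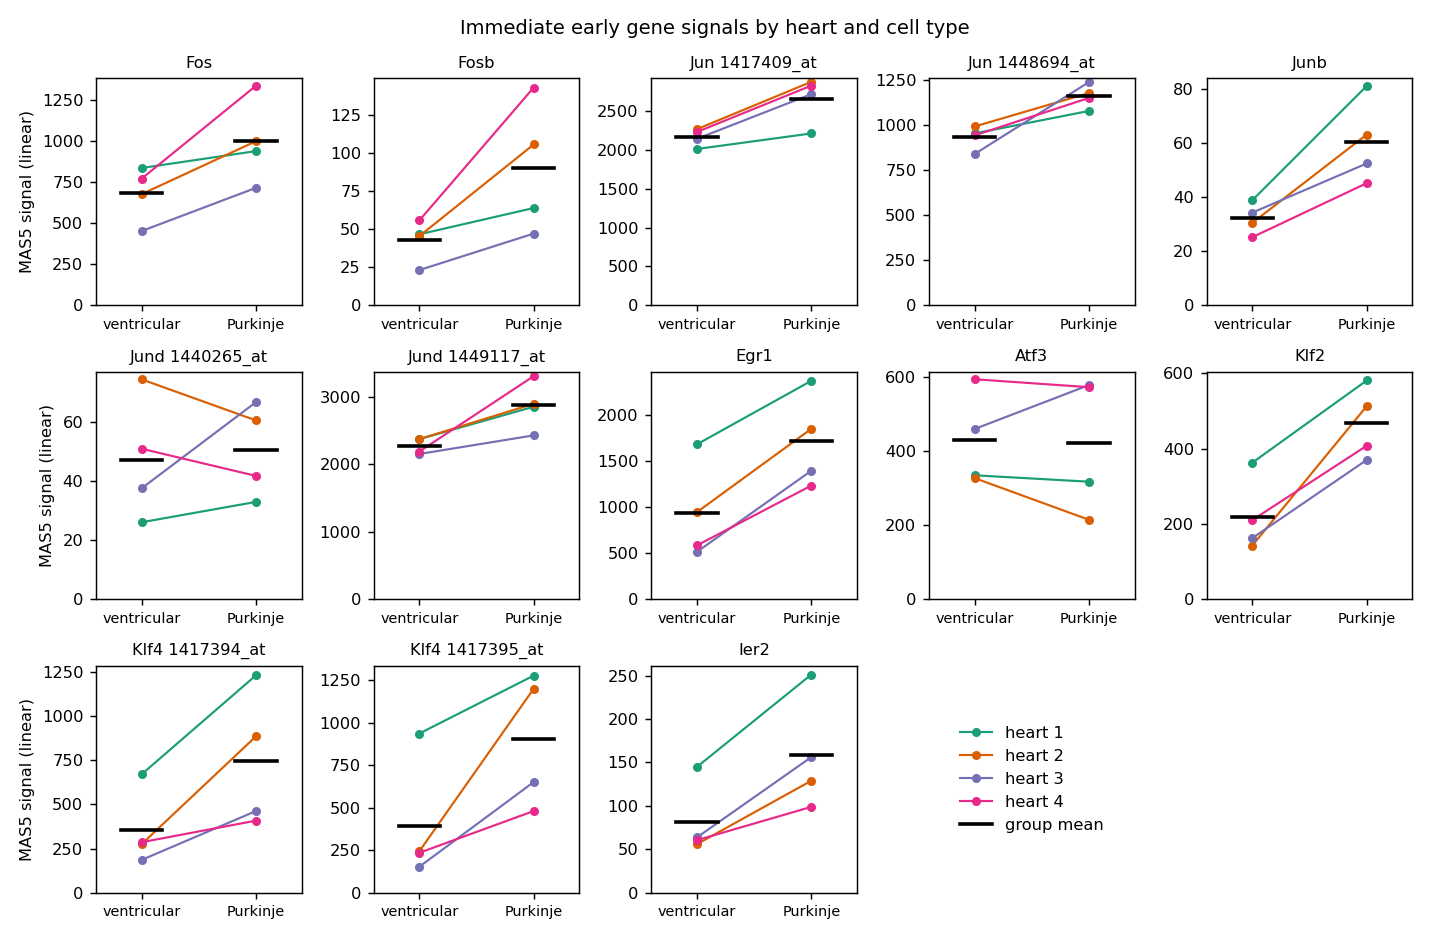
Signal (linear scale, from 0) of each of the 13 probe sets on the ventricular and Purkinje arrays; coloured lines join the arrays of 1 heart and black bars are group means of 4 arrays. Lines rise in every heart in 11 panels, while those of Atf3 and of the Jund probe set 1440265_at run both ways.

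**Figure D2:**
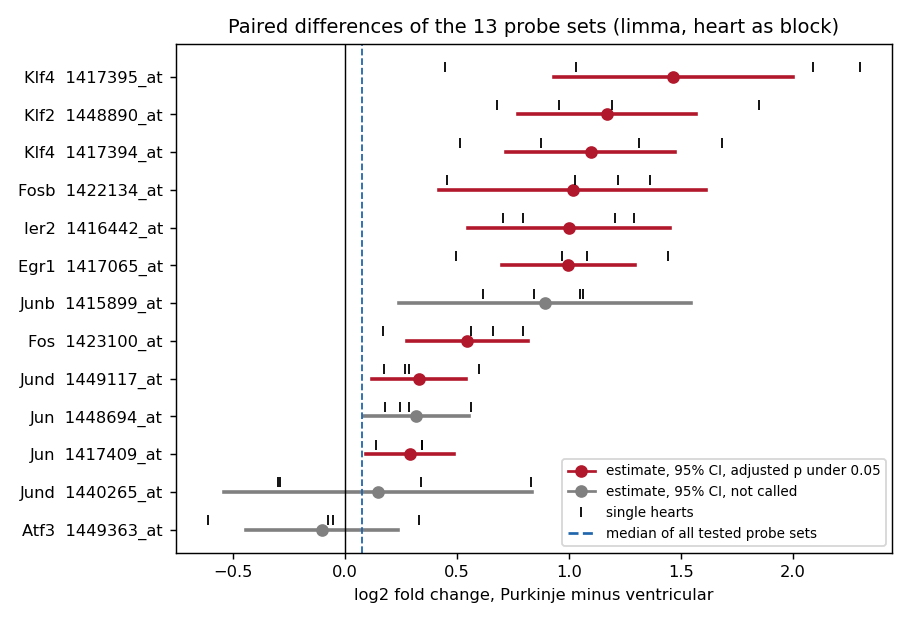
Log2 fold change of Purkinje minus ventricular arrays for the 13 probe sets with the 95% confidence interval of the paired limma fit (points and bars, red where called) and the value of each heart (ticks). The 9 called probe sets run from 0.29 for Jun to 1.47 for Klf4, and the dashed line marks the median of all tested probe sets at 0.08.

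Fos encodes the founding member of the Fos family, which binds DNA only with a partner such as a Jun protein. On the Purkinje arrays of hearts 1 to 4 its signal was 939.9, 1000.1, 715.8 and 1338.5, and on the ventricular arrays of the same hearts 836.6, 677.5, 452.3 and 772.0. The Purkinje array was the higher one in each heart, by 1.12-fold in heart 1 and 1.48-fold to 1.73-fold in the others, while the groups overlapped. The mean was 999 ± 258 (SD, n = 4) against 685 ± 168, or 0.55 ± 0.12 (SE) on the log2 scale (limma, adjusted p = 0.0125 with and 0.201 without the block). Without heart 1 it passed (adjusted p = 0.00337), and without heart 2, 3 or 4 it did not (0.0631, 0.0659 and 0.0741). Median centring ended the call too (adjusted p = 0.544).

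Fosb encodes a close relative of Fos. Its Purkinje signals were 63.9, 105.7, 47.1 and 143.1 and its ventricular signals 46.6, 45.4, 23.1 and 55.7. All were low, and the Purkinje array was higher in each heart, between 1.37-fold in heart 1 and 2.57-fold in heart 4. The log2 fold change was 1.02 ± 0.27 (adjusted p = 0.0267, and 0.177 without the block). It passed without heart 1 (adjusted p = 0.0169) but not without heart 2, 3 or 4 (0.116, 0.0769 and 0.130), nor after quantile normalization (0.0997) or median centring (0.0925). Fos and Fosb ranked the hearts alike, with heart 4 highest and heart 3 lowest on the Purkinje arrays. After group means were taken off, their log2 signals correlated at r = 0.933 over the 8 arrays, which share hearts and scaling and are no independent points.

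The promoters of Fos and Fosb were picked for display because both genes moved together across hearts. Whether their sites bear on this was not tested. The windows run from 250 bases before to 50 bases after the gene's start in the RefSeq annotation of GRCm38.p6, that of Fos at chr12:85473640-85473939 on the plus strand and that of Fosb at chr7:19309996-19310295 on the minus strand. Capitals mark the core TGACG of the cAMP response element and the Egr site GCGNGGGCG, searched on both strands.
Fos: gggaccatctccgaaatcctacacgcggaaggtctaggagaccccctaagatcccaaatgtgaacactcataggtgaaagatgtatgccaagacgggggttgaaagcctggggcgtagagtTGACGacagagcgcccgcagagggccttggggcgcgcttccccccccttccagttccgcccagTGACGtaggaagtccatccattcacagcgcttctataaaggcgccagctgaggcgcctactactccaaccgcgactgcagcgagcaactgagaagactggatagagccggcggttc
Fosb: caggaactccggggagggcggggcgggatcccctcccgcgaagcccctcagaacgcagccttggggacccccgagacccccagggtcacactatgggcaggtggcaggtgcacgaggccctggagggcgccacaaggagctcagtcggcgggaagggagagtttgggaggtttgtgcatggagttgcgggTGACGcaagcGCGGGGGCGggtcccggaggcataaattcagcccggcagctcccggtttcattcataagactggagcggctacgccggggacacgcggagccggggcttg
This core begins at bases 122 and 185 of the Fos window and at base 191 of the Fosb window, counted from 1 at the 5′ end. The Egr site of Fosb begins at base 201 and overlaps a GC box (GGGCGG) at base 205. Of all 32851 promoter windows of this length 20.8% hold the core and 5.55% the Egr site, and of the 8 windows of these genes used here (all but Egr1 and Ier2) 6 and 3 do. The GC box is in 35.7% of all windows and in 6 of these 8. The CArG box, which binds serum response factor, the full cAMP response element TGACGTCA and the AP-1 site TGANTCA are in 1.63%, 1.79% and 7.81% of all windows and in 0 of these 8. A match of letters is a description and not a bound site, and no match says only that these letters are not in this window.

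Jun, Junb and Jund encode the Jun partners of AP-1, Jun being strongly inducible and Jund present in many resting cells. The Jun probe set 1417409_at read 2211.5, 2876.4, 2717.2 and 2827.3 on the Purkinje arrays and 2011.4, 2267.1, 2143.1 and 2230.5 on the ventricular arrays. The Purkinje array was higher in each heart, by 1.10-fold in heart 1 and 1.27-fold in the other 3. The log2 fold change was 0.29 ± 0.09 (adjusted p = 0.0482, and 0.185 without the block). The other Jun probe set, 1448694_at, read 1080.5, 1180.4, 1241.3 and 1153.0 against 955.5, 994.0, 840.9 and 944.7, with no overlap between groups. Its log2 fold change of 0.32 ± 0.11 did not pass (adjusted p = 0.0678), though it passed after quantile normalization (0.021). Thus the probe sets of Jun gave the same size of difference on either side of the threshold.

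Jund read 2855.9, 2899.3, 2430.0 and 3310.0 on the Purkinje arrays and 2374.7, 2374.5, 2153.8 and 2189.7 on the ventricular arrays with probe set 1449117_at. The groups did not overlap, and the log2 fold change was 0.33 ± 0.10 (adjusted p = 0.0384, and 0.138 without the block). The other Jund probe set, 1440265_at, whose target is an expressed sequence tag, lay between 26.0 and 74.4 on all arrays and exceeded its ventricular partner on 2 of 4 Purkinje arrays. Its log2 fold change was 0.15, with a 95% interval from -0.54 to 0.83 (adjusted p = 0.796). For Jun and Jund the differences were small enough to depend on the scaling: after median centring 1417409_at was at -0.11, 1448694_at at -0.08 and 1449117_at at -0.07, and after quantile normalization they were at 0.45, 0.45 and 0.48. The median of all tested probe sets was at -0.32 and -0.06 in these 2 settings. Without heart 1 the called probe sets of Jun and Jund passed (adjusted p = 0.0339 and 0.0446). Without heart 2, 3 or 4 neither did, at 0.175, 0.146 and 0.176 for Jun and 0.120, 0.0622 and 0.217 for Jund. With every probe set naming 1 gene tested, however low, neither passed (0.0807 and 0.0656).

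Junb had low signals of 81.2, 63.2, 52.5 and 45.2 on the Purkinje arrays and 38.9, 30.5, 34.3 and 25.2 on the ventricular arrays. The groups did not overlap and the Purkinje array was higher by 1.53-fold to 2.09-fold in every heart. Its log2 fold change of 0.89 had a 95% interval from 0.24 to 1.55 and did not pass over all probe sets (adjusted p = 0.0660).

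Egr1 encodes a zinc finger factor induced through serum response factor and MAP kinases, and it had the lowest adjusted p of the 13. Its signals were 2371.3, 1850.0, 1394.2 and 1232.9 on the Purkinje arrays and 1681.2, 944.3, 513.1 and 582.8 on the ventricular arrays. The Purkinje array was higher in each heart, by 1.41-fold in heart 1, 1.96-fold in heart 2, 2.72-fold in heart 3 and 2.12-fold in heart 4. The ventricular array of heart 1 lay above the Purkinje arrays of hearts 3 and 4, so the groups overlapped. The means were 1712 ± 511 (SD, n = 4) and 930 ± 535, with a log2 fold change of 1.00 ± 0.14 (adjusted p = 0.000989, and 0.128 without the block).

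Klf2 and Klf4 encode Kruppel-like zinc finger factors. Klf2 read 581.2, 512.9, 369.9 and 407.6 on the Purkinje arrays and 362.6, 142.3, 162.0 and 209.9 on the ventricular arrays. The lowest Purkinje array stood just above the highest ventricular array, that of heart 1. The means were 468 ± 96.8 and 219 ± 99.7, and the log2 fold change was 1.17 ± 0.18 (adjusted p = 0.00189, and 0.0550 without the block). Klf4 with probe set 1417395_at read 1278.0, 1200.9, 651.6 and 481.2 against 937.2, 244.2, 153.3 and 235.5. Its log2 fold change of 1.47 ± 0.25 was the largest of the 13 (adjusted p = 0.00275, and 0.128 without the block). The other Klf4 probe set, 1417394_at, read 1231.0, 885.7, 462.8 and 408.4 against 670.7, 275.6, 186.1 and 286.3, with a log2 fold change of 1.10 ± 0.17 (adjusted p = 0.00207). Both probe sets placed the ventricular array of heart 1 above the Purkinje arrays of hearts 3 and 4.

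The promoters of Klf2 (chr8:72318812-72319111, plus strand) and Klf4 (chr4:55532426-55532725, minus strand) are shown in the same RefSeq windows, with the same sites in capitals. They were picked because Klf2 and Klf4 followed each other across arrays (r = 0.892 between Klf2 and 1417395_at after group means were taken off). Whether the sites bear on this was not tested.
Klf2: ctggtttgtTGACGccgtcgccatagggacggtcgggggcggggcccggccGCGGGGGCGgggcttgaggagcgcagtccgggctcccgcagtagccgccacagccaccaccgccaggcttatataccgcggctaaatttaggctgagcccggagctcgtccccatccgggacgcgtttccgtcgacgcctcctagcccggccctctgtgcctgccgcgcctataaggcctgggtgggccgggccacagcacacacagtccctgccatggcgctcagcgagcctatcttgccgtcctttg
Klf4: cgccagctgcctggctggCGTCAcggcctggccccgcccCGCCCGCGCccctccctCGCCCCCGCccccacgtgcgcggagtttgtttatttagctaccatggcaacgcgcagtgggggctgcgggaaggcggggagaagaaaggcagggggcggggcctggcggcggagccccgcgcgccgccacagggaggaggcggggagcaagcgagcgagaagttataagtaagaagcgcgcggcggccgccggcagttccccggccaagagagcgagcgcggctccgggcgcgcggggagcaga
The core begins at base 10 of the Klf2 window and, on the other strand, at base 19 of the Klf4 window. The Egr site begins at base 52 of the Klf2 window and, on the other strand, at bases 40 and 57 of the Klf4 window, and each of these 3 overlaps a GC box.

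Ier2 encodes a small nuclear protein of the serum-induced class. Its signals were 251.2, 129.0, 156.2 and 98.9 on the Purkinje arrays and 144.9, 56.0, 63.8 and 60.6 on the ventricular arrays. The Purkinje array was higher by 1.63-fold to 2.45-fold in each heart, and the ventricular array of heart 1 reached into the Purkinje range. The log2 fold change was 1.00 ± 0.21 (adjusted p = 0.00777, and 0.146 without the block), and the adjusted p was 0.0530 without heart 3.

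Atf3 encodes a stress-induced factor of the ATF/CREB family that can pair with Jun. It read 317.1, 214.1, 578.3 and 572.6 on the Purkinje arrays and 334.4, 326.8, 459.6 and 594.0 on the ventricular arrays. The Purkinje array was higher in 1 of 4 hearts, and the log2 fold change was -0.10 with a 95% interval from -0.44 to 0.24 (adjusted p = 0.706). Under median centring, which moved the median of all tested probe sets to -0.32, Atf3 was at -0.51 and Egr1 at 0.59 (adjusted p = 0.0513 and 0.0109). In place of the cell types, the hearts stood apart: all 4 arrays of hearts 3 and 4 were above all 4 arrays of hearts 1 and 2.

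The variation between hearts was examined next, with an F test of the 3 heart terms in the same fit. Of the 13 probe sets 6 differed between hearts, those of Fos, Egr1, Atf3, Ier2 and both of Klf4, where 7.4% of all tested probe sets did. Egr1 had a heart adjusted p of 0.00496, Klf4 0.00602 and 0.0199, Atf3 0.0173, Fos 0.0423 and Ier2 0.0449. Averaged over both cell types, the highest heart exceeded the lowest by 3.46-fold for Klf4 (1417395_at), 2.36-fold for Egr1, 2.46-fold for Ier2, 2.20-fold for Atf3 and 1.79-fold for Fos. Klf4, Egr1 and Ier2 were highest in heart 1, Atf3 in heart 4 and Fos in heart 4. Of the log2 sum of squares of Atf3, 87.7% went with the heart and 1.05% with the cell type. For Egr1 these shares were 48.9% and 45.8%, and for Junb 24.7% and 72.3%. Without heart 1 the heart difference of Ier2 (adjusted p = 0.789) and Klf4 (0.171 and 0.196) did not pass, and those of Egr1, Fos and Atf3 did. Fos did not pass without heart 2, 3 or 4 (0.0578, 0.541 and 0.0897), Atf3 and Ier2 not without heart 2 (0.0570 and 0.0589) or heart 4 (0.0650 and 0.0548), and none of the 13 passed without the mean-variance trend. Quantile normalization and testing without a limit on low signals ended the heart calls of Fos (0.0532 and 0.0605) and Ier2 (0.0614 and 0.0711), and that of Ier2 was also lost with array weights (0.0504) and with 1 probe set per gene (0.0501). The Gapdh control probe sets, whose 3′ over 5′ ratio rises as RNA or amplified product shortens, gave 1.204 to 1.285 on the arrays of hearts 1 and 2 and 1.508 to 1.719 on those of hearts 3 and 4. In all 4 hearts the Purkinje array had the larger ratio of the pair, at 1.239 against 1.226, 1.285 against 1.204, 1.636 against 1.508 and 1.719 against 1.509 in hearts 1 to 4. Its part in the differences between hearts or between cell types was not tested.

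**Figure D3:**
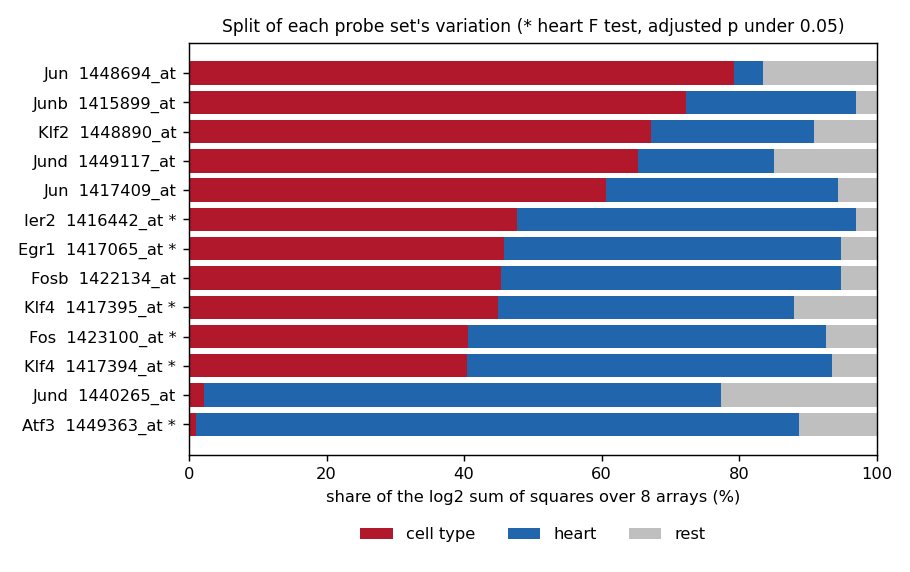
Share (%) of the log2 sum of squares over the 8 arrays that goes with cell type, heart and the rest, for each of the 13 probe sets; a star marks an adjusted p under 0.05 in the heart F test. The heart share runs from 4.1% for Jun 1448694_at to 87.7% for Atf3.

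Among themselves the genes did not form a single pattern. After group means were taken off, the 78 pairs of probe sets correlated between r = -0.841 and r = 0.959 over the 8 arrays. The value of 0.959 was that of both Klf4 probe sets with each other, and the highest between different genes was 0.938. Egr1 and Klf4 (0.938 with 1417395_at), Klf2 and Ier2 (0.803) and Junb and Ier2 (0.796) went together, as did Fos and Jund with 1449117_at (0.800) but not with 1440265_at (-0.247). Jun and Ier2 gave -0.841 with 1417409_at and -0.138 with 1448694_at, and Junb and Atf3 gave -0.692. The 5 other probe sets most like the mean profile of the 10 genes over the 8 arrays read Slco2b1, an organic anion transporter (r = 0.992), Fscn1, which bundles actin (0.988), Timp3, an inhibitor of metalloproteinases (0.987), Vat1 (0.987) and App, the amyloid precursor gene (0.986). For these 5 the group means were left in, so the difference between cell types is part of the likeness. They were chosen as the highest among all tested probe sets of other genes, so their r is high by that choice. All values of this paragraph describe likeness only, and the arrays share hearts and scaling.

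Many markers of cells other than myocytes were also higher on the Purkinje arrays, and their summed signals varied between hearts. Heart differences of single markers were not read from the F test. Of 18 endothelial markers 16 were higher and none lower in the paired fit, of 11 smooth muscle and pericyte markers 10 and none, of 12 fibroblast markers 8 and none, and of 11 macrophage and leukocyte markers 3 and none. Of all genes 9.51% were called higher and 7.37% lower in that fit. Without the block 1, 3, 2 and 0 of these markers passed, where 2.55% of all genes did. The summed endothelial signal was 11024, 10077, 6038 and 4237 on the Purkinje arrays of hearts 1 to 4 and 6276, 2770, 1852 and 2225 on the ventricular arrays. The summed smooth muscle and pericyte signal ranged from 7816 to 14372 on Purkinje arrays and from 4860 to 8527 on ventricular arrays, the fibroblast one from 6646 to 8918 and from 2933 to 5516, and the macrophage and leukocyte one from 760 to 2040 and from 653 to 1102. In the smooth muscle and pericyte list Abcc9 alone averaged 3562 on Purkinje and 3619 on ventricular arrays. It was not called (limma adjusted p = 0.732), so a large part of that sum came from a gene without a called difference. Among the defining markers, Pecam1 and Cdh5 of endothelium lay at 177.8 or more on every Purkinje array and at 72.9 or more on every ventricular array. Acta2 of smooth muscle lay at 257.0 or more and Col1a1 of fibroblasts at 84.5 or more on every array. Ptprc of leukocytes, at 0.8 to 31.8, had a mean below the limit for testing. Of 14 cardiac myocyte markers 1 was lower (Mybpc3) and none higher, with a median log2 difference of -0.10. Of 3 neuronal and Schwann cell markers tested 1 was higher.

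After group means were taken off, the log2 signals of Klf4 (r = 0.976 with either probe set), Egr1 (0.935), Klf2 (0.824), Ier2 (0.824) and Junb (0.776) followed the mean of the endothelial markers over the 8 arrays. The values were lower for Fos (0.242), Fosb (0.0475), Jun (-0.552 and 0.101) and Jund (0.0713 with 1449117_at, -0.402 with 1440265_at), and Atf3 ran the other way (-0.735). The likeness was not particular to endothelium. With the smooth muscle and pericyte markers the values were 0.916 for Junb, 0.889 and 0.874 for Klf4, 0.871 for Egr1, 0.794 for Ier2 and 0.751 for Klf2. With the macrophage and leukocyte markers Ier2 reached 0.938 and the other 4 genes 0.625 to 0.747, and with the fibroblast markers these 5 genes lay between 0.624 and 0.824. With the cardiac myocyte markers the same 5 genes lay between -0.761 and -0.293. With the 3 neuronal and Schwann cell markers tested they lay between -0.627 and -0.192. These are descriptions over arrays that share hearts, scaling and cell preparations. The part of endothelial or other non-myocyte RNA in the differences of the immediate early genes was not tested.

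**Figure D4:**
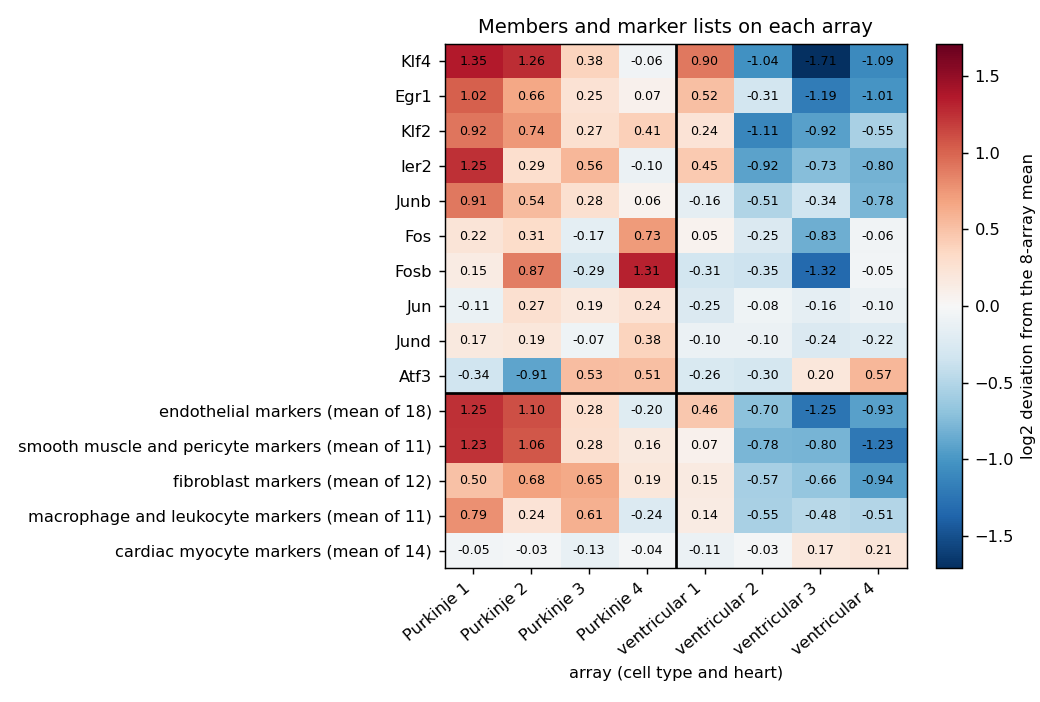
Log2 deviation from the 8-array mean on each array, for the 10 genes (above the line, each by its probe set of highest mean) and for the mean of 5 marker lists (below). Klf4, Egr1, Klf2, Ier2 and Junb are highest on Purkinje 1 and, among ventricular arrays, on ventricular 1, as are the endothelial, smooth muscle and pericyte, and macrophage and leukocyte markers, while Atf3 is highest on the arrays of hearts 3 and 4.

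Other genes of the same response were read from a list of 60, of which 55 were tested, each by its probe set of highest mean signal. Of these 23 were higher and 3 lower in Purkinje cells and 29 did not pass, where 9.51% of all genes were called higher and 7.37% lower. The list median was 0.29 against 0.05 over all genes. Without the block none of the 55 passed in either direction (limma, adjusted p; 2.55% of all genes did), and with 1 heart left out between 10 and 18 were higher. The 6 with the largest change were Socs3, a feedback inhibitor of cytokine signalling (log2 fold change 1.64 ± 0.46), Egr3 (1.64 ± 0.39) and Egr2 (1.35 ± 0.33), relatives of Egr1, the MAP kinase phosphatase gene Dusp6 (1.39 ± 0.27), the kinase gene Sgk1 (1.12 ± 0.18) and the interferon regulatory factor gene Irf1 (1.10 ± 0.22). Socs3, at 3.0 to 144.8, Egr3, at 9.5 to 92.3, and Egr2, at 15.3 to 101.1, had ventricular signals on both sides of the limit of 19.9, so the sizes of their changes are uncertain. Signals of Sgk1 averaged 947 ± 499 (SD, n = 4) on the Purkinje and 469 ± 342 on the ventricular side (adjusted p = 0.00198). Other probe sets gave 0.79 for Socs3 (adjusted p = 0.162), 0.82 for Egr3 (0.242) and 1.35 for Egr2 (0.0894). The 3 lower genes, named after their values were seen, were the circadian repressor gene Bhlhe40 (fell by 0.68 on the log2 scale), the growth arrest gene Gadd45a (fell by 0.53) and the antiproliferative gene Tob1 (fell by 0.52). After median centring 6 genes of the list were higher and 9 lower, so the balance of directions depended on the scaling.

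Partners of AP-1 and factors upstream of these genes were read from 3 further lists. Of 21 other basic leucine zipper genes Cebpd (0.77 ± 0.19), Maff (0.55 ± 0.15) and Fosl2 (0.52 ± 0.15), all also in the list above, were higher, none was lower, and the median was 0.09. Of 17 genes of the serum response, ternary complex and CREB factors Elk3, an Ets factor recruited by serum response factor, was higher (1.05 ± 0.20, adjusted p = 0.00520) and Mef2c, a muscle transcription factor, lower (-0.87 ± 0.22, adjusted p = 0.0191), with a median of 0.13. Elk3 lay between 125.3 and 677.4 on Purkinje arrays and between 87.5 and 416.8 on ventricular arrays. Of 28 MAP kinase cascade genes Mapk12, a p38 kinase (1.18 ± 0.22), and Braf (0.58 ± 0.15) were higher, and Mapkapk2 (-0.55), Mapkapk5 (-0.49), Map3k4 (-0.49) and Map3k5 (-0.39) lower, with a median of 0.02. Other tested probe sets of these called genes kept the direction, but many did not pass. Their limma adjusted p was 0.155 for Cebpd, 0.168 for Fosl2, 0.0155 to 0.107 for Elk3 and 0.0416 to 0.0573 for Mef2c. It ran from 0.0289 to 0.744 for Braf and from 0.110 to 0.279 for Map3k4, and was 0.0619 for Map3k5. Called genes made up 14.3%, 11.8% and 21.4% of these lists, and 16.9% of all genes. Without the block Mapk12 passed (adjusted p = 0.0314) and no other gene of these lists did. Signals of Mapk12 averaged 258.6 ± 48.2 and 116 ± 33.0 (SD, n = 4) in the same order, with no overlap between groups.

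**Figure D5:**
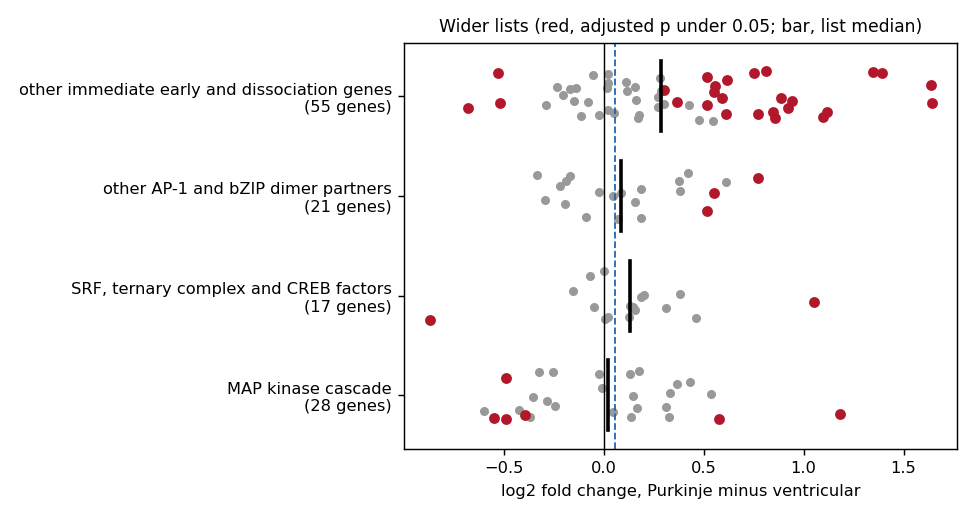
Log2 fold change of Purkinje minus ventricular arrays for each tested gene of 4 lists (points spread vertically for legibility, red where called in the paired fit, black bar at the list median, dashed line at the median of all genes, 0.05). The list of other immediate early genes has its median at 0.29, and the medians of the 3 partner and upstream lists lie between 0.02 and 0.13.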

How the data were processed

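Per the labels' protocols, PicoPure columns gave the RNA of the sorted cells, cDNA came from the Nugen Ovation Pico amplification system, and labelling was the Affymetrix standard. The submitters' processing notes name MAS5 without a version, and the values the authors deposited are linear probe set intensities. The authors' deposited ratio of group means and p-value per probe set were also read, and in all 45101 probe sets the p-value equalled, within 5e-10, that of a paired comparison of linear signals. Both deposited tables held the same signals, and no pair of arrays was identical. Depth has no meaning for arrays, and the number of arrays limits the precision.

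Gene names came from the platform's annotation, which gives 34945 probe sets 1 gene, 932 several and 9160 none; 64 controls were left out. Signals were taken to log2 with 10 values of 0 set to 0.1. Probe sets naming 1 gene with a mean log2 signal above the 40th percentile (4.31) were tested two-sided with the heart as a block in limma 3.58.1 (R 4.3.3), using lmFit and a mean-variance trend in eBayes. The pairing comes from the series design, which names 4 hearts, and from the authors' p-value. Deviations from group means correlated at 0.382, 0.220, 0.261 and 0.251 between same-numbered arrays, and between -0.299 and 0.227 for other numbers, positive within hearts 1 and 2 and within hearts 3 and 4 (0.0889 to 0.227). The pairing thus rests on the design, since the arrays show these pairs of hearts nearly as much as single hearts. Members, lists, alternatives and the choice of the block were made with earlier results of these data known. Named genes are the 10 members, up to 6 called genes of each wider list with the largest change, and the 5 probe sets most like the members' mean profile. On simulated data with the means, heart effects and spreads of the 22887 probe sets, the fit found 25 of 100 probe sets given a 2-fold change, 63 of 100 given a 4-fold change and 2 others. No other probe set was given a change there, and the random spread was drawn separately for each probe set. In the measured data 15.1% of probe sets were called, so these rates cannot be carried over to them. Alternatives were no block, quantile normalization, median centring, a limit at the 60th percentile or none, 1 probe set per gene, 16 or 64 added before log2, no variance trend, array weights, leaving out hearts or arrays, pairs of hearts alone, and the authors' p-value. Promoter sequences are from RefSeq (GRCm38.p6); 8 of 10 members had a window used here.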

Additional observations from a re-analysis of the deposited data

Results flagged for a closer look

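On the ventricular arrays the signal of heart 1 stood far from the other 3 for Klf4 (1417395_at, 937.2 against 153.3 to 244.2) and for Ier2 (144.9 against 56.0 to 63.8). The gap to the nearest array was 0.884 and 0.912 of the group's range, above Dixon's critical value for 4 values. Of 26 groups of 4 arrays examined 2 were marked, and chance marks about 1 in 20. On the same array the summed endothelial signal was 6276, against 1852 to 2770 on the other ventricular arrays, and it was also the highest for smooth muscle and pericyte (8527 against 4860 to 7869), fibroblast (5516 against 2933 to 3907) and macrophage and leukocyte markers (1102 against 653 to 733). Of the smooth muscle and pericyte sum, Abcc9 alone gave 2945 to 4861 on the ventricular arrays. The part of the RNA of these cell types was not tested. Without heart 1 the log2 fold change was 1.81 for Klf4 and 1.07 for Ier2, and both passed (limma adjusted p = 7.87e-05 and 0.0138).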

How the results depend on the processing

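The 9 member calls, the 23 higher and 3 lower genes of the wider immediate early list, and the 3 (leucine zipper), 2 (serum response) and 6 (MAP kinase) calls of the other lists were recounted under each alternative. With 16 or 64 added before log2 and with array weights each of these counts was the same number. Without the replicate block they were 0, 0, 0, 0, 0 and 1, without the mean-variance trend all 0 (the 6 heart calls also 0), and with the authors' p-values adjusted over the same probe sets all 0, where 10 members had an unadjusted p under 0.05. After median centring they were 5, 6, 9, 7, 3 and 13. After quantile normalization they were 9, 16, 2, 0, 1 and 2, and with no limit on low signals 7, 19, 2, 3, 2 and 4. The 9 member calls after quantile normalization were without Fosb (limma adjusted p = 0.0997) and with Jun 1448694_at (0.021). With the limit at the 60th percentile the counts were 9, 21, 3, 4, 2 and 6, and with 1 probe set per gene 8, 23, 3, 3, 2 and 6. Hearts 1 and 2 alone gave 4, 4, 0, 0, 1 and 0, and hearts 3 and 4 alone 7, 10, 1, 1, 2 and 4. Leaving out a heart, or an array without the block, gave between 0 and 9 member calls, 0 and 18 higher, 0 and 2 lower, 0 and 1 zipper, 0 and 3 serum response and 0 and 7 kinase calls, and 3 to 5 heart calls. Over all probe sets 3466 passed, and 494 without the block, 2108 with 1 probe set per gene, 7496 after median centring (14.8% of them higher, against 58.1%), 7 without the trend and 0 by the authors' p-values. Directions turned for the Jun probe sets (-0.112 and -0.0844) and both of Jund (-0.257 and -0.0719) after median centring, and for Jund 1440265_at after quantile normalization (-0.201). The median of all tested probe sets was at -0.32 after median centring, below each of those values, and at -0.06 after quantile normalization. With a heart left out Jund 1440265_at ran from -0.0821 to 0.294 and Atf3 from -0.247 to 0.0673. Without the block Jund 1440265_at also turned without Purkinje replicate 3 (-0.00707) or ventricular replicate 1 (-0.105), and Atf3 without Purkinje replicate 2 (0.183) or ventricular replicate 4 (0.0697). In hearts 3 and 4 alone Atf3 was at 0.139. The causes were not tested.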
